A study of Mus musculus with 4 samples.

Results

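Cell adhesion molecules of the L1, NCAM and contactin families were examined in fetal mouse brain after maternal alcohol. The members were 10 genes taken by name: L1cam, Chl1, Nrcam and Nfasc of the L1 family, Ncam1 and Ncam2 of the NCAM family, and Cntn1, Cntn2, Cntn4 and Cntn6 of the contactin family. They were chosen because adhesion through L1 is a known target of ethanol, with earlier results of these data known. Each was found by its single symbol in the platform annotation and had 1 probe set, out of 19938 genes named in this way on the array, and all 10 passed the expression filter that kept 11013 genes.

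C57BL/6J dams received ethanol (2.9 g per kg per day, as a 15% v/v solution) or phosphate-buffered saline (PBS) into the stomach on 5 days, embryonic day 8 to day 12. Fetal brain tissue was collected at embryonic day 18. The 4 groups were hippocampus after ethanol, hippocampus after PBS, forebrain after ethanol and forebrain after PBS, and each was measured on 1 Affymetrix mouse gene array. With 1 array a group, differences within a tissue have no replicate check and no p-value. The labels do not say how many embryos or litters gave each RNA, so litter and treatment cannot be told apart.

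These proteins carry immunoglobulin-like and fibronectin-type domains outside the cell, and they bind each other and their own kind to hold axons together and to steer them. Members of the L1 family span the membrane and bind ankyrin, which ties them to the actin and spectrin skeleton. Contactins have no cytoplasmic part: they are held by a lipid anchor and signal through partners in the same membrane, such as the Caspr proteins and L1-family members. NCAM proteins occur in both forms, and NCAM carries polysialic acid, a sugar polymer that loosens adhesion in the growing brain.

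All values are log2 expression values as deposited, and a difference of 0.58 on this scale is 1.5-fold. Array medians over all 35557 probe sets lay between 7.11 and 7.13. Over the kept genes the median was 8.57 on the hippocampus ethanol array, below the 8.66 to 8.68 of the other arrays. Markers of hippocampal fields, taken as a list, did not set the tissue labelled hippocampus apart. Of 7 kept markers, 3 were higher than in forebrain after ethanol (median difference -0.00) and 4 after PBS (median 0.02). Among all kept genes 69.6% were lower after ethanol and 47.5% after PBS. Single markers differed: Zbtb20 by 0.23 after ethanol and 0.35 after PBS, and Prox1 by -0.33 and -0.16, both named after their values were seen. The eighth marker, the Wnt ligand gene Wnt8b of the medial pallium, read between 5.49 and 5.69 on all arrays, below the filter value of 7.11. The hippocampus PBS array stood apart from the other 3 arrays for several members, and this is given with the results it touches.

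The L1 family itself differed little between arrays. L1cam, the founding member, which promotes the growth and bundling of axons, read 10.49 in hippocampus after ethanol, 10.45 in hippocampus after PBS, 10.59 in forebrain after ethanol and 10.51 in forebrain after PBS. Its ethanol difference was 0.03 in hippocampus and 0.08 in forebrain, and 85.3% of kept genes had a larger absolute difference in hippocampus. The ethanol value of L1cam lay within 1.06-fold of its PBS value in either tissue.

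Nrcam, an ankyrin-binding receptor of growing axons that later gathers at nodes of Ranvier, varied little. It read 10.39 and 10.36 in hippocampus after ethanol and after PBS, and 10.43 in forebrain after either treatment, a range of 0.07. Chl1, the close homologue of L1 that orients dendrites of cortical pyramidal neurons, read 10.32 and 10.38 in hippocampus after ethanol and after PBS, and 10.48 and 10.39 in forebrain after ethanol and after PBS. Its ethanol difference was -0.06 in hippocampus and 0.08 in forebrain. The hippocampal sign of Chl1 turned to 0.04 when each array was centred on its median.

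Nfasc, which organizes the axon initial segment and the node, read 9.09 in hippocampus after ethanol, against 9.30 after PBS, and 9.21 in forebrain after ethanol, against 9.28 after PBS. The ethanol array was the lower of the pair in both tissues, by -0.21 in hippocampus and by -0.06 in forebrain, and 24.1% of kept genes had a larger absolute difference in hippocampus. That was the largest hippocampal difference in the L1 family on the deposited values, but with centred arrays it was -0.11, against 0.13 for both L1cam and Nrcam, and in forebrain Chl1 and L1cam lay farther from 0.

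The 2 NCAM genes did not share a pattern. Ncam1, the main carrier of polysialic acid in brain, read 11.46 and 11.48 in hippocampus after ethanol and after PBS, and 11.54 and 11.55 in forebrain after ethanol and after PBS. Its range over the arrays was 0.10. Ncam2, a relative best known from the sorting of olfactory axons, read 9.14 in hippocampus after ethanol, against 8.71 after PBS, and 9.37 in forebrain after ethanol, against 9.20 after PBS. Ncam2 was higher with ethanol in both tissues, by 0.43 in hippocampus and 0.17 in forebrain. Its forebrain difference was the largest of the 10 members there, with 6.29% of kept genes beyond it.

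The largest hippocampal difference among the members was that of a contactin, and the contactin members ran in opposite directions. The contactins outside the members, Cntn3 and Cntn5, differed by 0.04 and 0.01 in hippocampus, and were named after their values were seen. Cntn4 (BIG-2), which helps olfactory axons find their targets and binds the amyloid precursor protein, read 7.98 in hippocampus after ethanol, against 7.30 after PBS, and 7.94 in forebrain after ethanol, against 7.86 after PBS. Its hippocampal difference of 0.69, or 1.61-fold, was the only one among the members past 1.5-fold, and 0.51% of kept genes had a larger absolute difference. The PBS value of 7.30 lies near the filter value. Its forebrain difference was 0.08.

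Cntn1 (F3/contactin), which joins axons to myelinating glia as a partner of Caspr and binds the receptor phosphatase Ptprz1, read 10.34 in hippocampus after ethanol, against 9.85 after PBS, and 10.29 in forebrain after ethanol, against 10.19 after PBS. The differences were 0.48 and 0.10. Cntn2 (TAG-1), an early marker of outgrowing cortical and commissural axons, ran the other way: it read 10.34 in hippocampus after ethanol, against 10.91 after PBS, and 10.51 in forebrain after ethanol, against 10.59 after PBS. Its hippocampal difference of -0.57, or 1.48-fold, fell just short of 1.5-fold, and 1.09% of kept genes lay beyond it. Cntn6 (NB-3), a contactin that acts with Chl1 in orienting apical dendrites, read 7.89 and 7.93 in hippocampus after ethanol and after PBS, and 8.27 and 8.29 in forebrain after ethanol and after PBS. Its values separated by tissue, not by treatment.

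**Figure D1:**
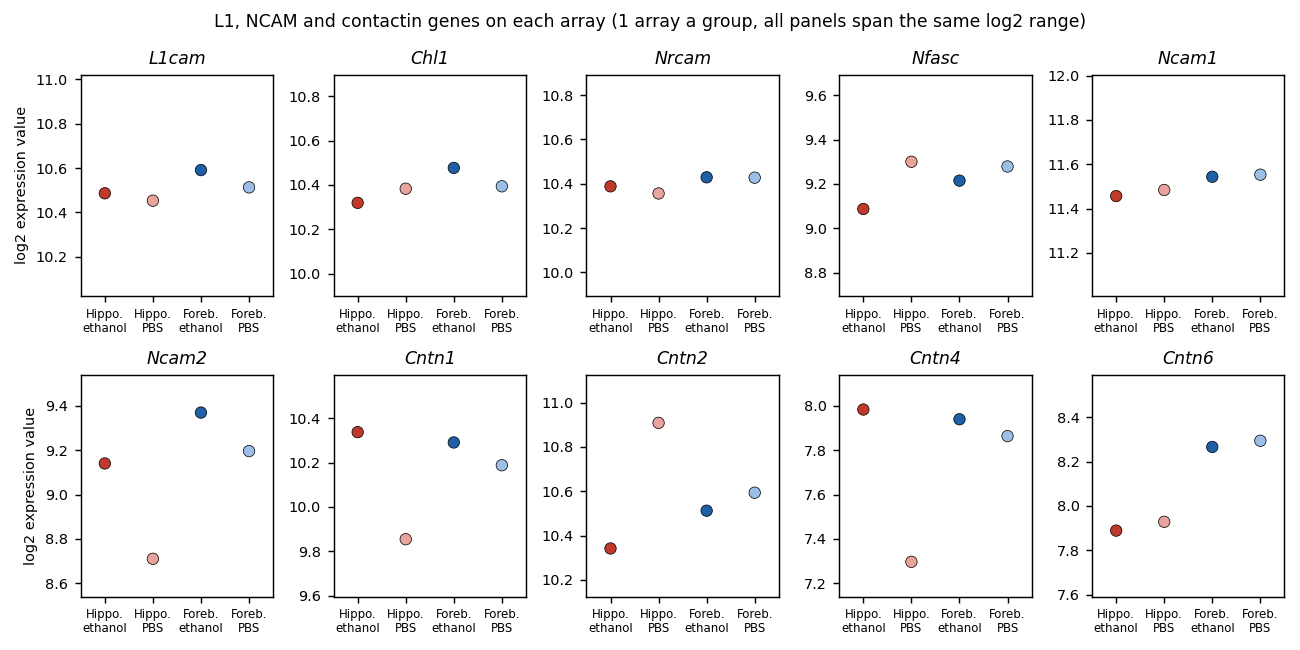
Log2 expression value (vertical axis) of each of the 10 members on the 4 arrays, 1 point an array, with panels of equal height in log2 units and no error bars because each group has 1 array. For Ncam2, Cntn1 and Cntn4 the hippocampus PBS array is the lowest point and for Cntn2 it is the highest, while Cntn6 is lower on both hippocampus arrays.

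The promoters of the 4 members with the largest hippocampal differences are shown, since 3 of these genes read low and 1 read high on the hippocampus PBS array. The windows hold 250 bases before and 50 after a transcription start (RefSeq, GRCm38.p6). They are chr6:106118515-106118814 (plus strand) for Cntn4, chr16:81200447-81200746 (plus strand) for Ncam2, chr15:92050915-92051214 (plus strand) for Cntn1 and chr1:132542891-132543190 (minus strand) for Cntn2. The RefSeq table holds 2 windows for Cntn4 and 3 for Cntn1, of which the first is printed. Capitals mark matches, on either strand, to the TATA box TATAAA, the box called CCAAT, the GC box GGGCGG and the E-box CAGCTG.
Cntn4: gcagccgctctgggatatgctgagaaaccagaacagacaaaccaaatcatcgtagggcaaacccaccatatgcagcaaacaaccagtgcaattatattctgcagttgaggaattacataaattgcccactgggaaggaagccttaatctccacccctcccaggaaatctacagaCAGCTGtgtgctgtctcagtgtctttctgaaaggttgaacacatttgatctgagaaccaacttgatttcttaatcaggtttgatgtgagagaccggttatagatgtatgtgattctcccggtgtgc
Ncam2: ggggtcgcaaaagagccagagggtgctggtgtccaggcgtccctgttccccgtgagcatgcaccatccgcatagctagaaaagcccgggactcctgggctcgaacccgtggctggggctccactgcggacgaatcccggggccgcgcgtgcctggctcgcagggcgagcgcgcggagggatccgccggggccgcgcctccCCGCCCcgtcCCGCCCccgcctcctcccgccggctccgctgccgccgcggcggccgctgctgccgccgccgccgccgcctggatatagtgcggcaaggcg
Cntn1: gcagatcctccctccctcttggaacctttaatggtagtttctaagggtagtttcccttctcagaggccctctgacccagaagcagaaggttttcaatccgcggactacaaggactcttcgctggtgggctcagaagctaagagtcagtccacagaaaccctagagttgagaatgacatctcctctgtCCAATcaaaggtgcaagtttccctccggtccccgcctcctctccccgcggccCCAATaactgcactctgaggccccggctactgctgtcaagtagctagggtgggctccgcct
Cntn2: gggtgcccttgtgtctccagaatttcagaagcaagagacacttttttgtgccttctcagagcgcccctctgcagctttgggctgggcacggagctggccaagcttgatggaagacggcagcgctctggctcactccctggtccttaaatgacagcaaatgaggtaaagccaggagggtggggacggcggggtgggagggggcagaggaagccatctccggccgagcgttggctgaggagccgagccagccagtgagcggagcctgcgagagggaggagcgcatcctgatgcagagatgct

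The 4 printed windows did not share a motif. The Cntn4 window held 1 CAGCTG, an E-box found in 16.3% of all 32851 promoter windows, and the Ncam2 window held 2 GGGCGG boxes, found in 35.7%. Cntn1 had 2 CCAAT boxes, found in 37.4% of windows. None of these letters occurred in the Cntn2 window, and TATAAA, found in 13.6% of windows, occurred in none of the 4 printed windows. The windows not printed differ: the second of Cntn4 holds 1 CCAAT and 2 CAGCTG, the second of Cntn1 holds 1 TATAAA, and the third of Cntn1 holds 2 CCAAT. Base composition of the printed windows ran from 45.0% G and C for Cntn4 to 75.7% for Ncam2, with 55.3% for Cntn1, 61.3% for Cntn2 and a median of 52.7% over all windows. In the windows of Cntn1 not printed it was 34.7% and 45.0%. A match is a description of letters, not of a bound site.

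In hippocampus, 5 members were higher and 5 lower after ethanol, where 30.7% of kept genes were higher. The median difference of the members was 0.00, against -0.08 over all kept genes, and their median absolute difference was 0.14, against 0.12. The members did not act as a group: Cntn4, Cntn2, Cntn1 and Ncam2 lay among the kept genes with the largest absolute differences, with 0.51% to 3.60% of genes beyond them, while 82.6% to 87.9% of genes lay beyond Cntn6, L1cam, Nrcam and Ncam1. At 1.5-fold 1 member was higher and 0 were lower, where 0.917% of kept genes passed 1.5-fold in either direction and 0.49% were higher. The count rests on Cntn4 alone. At 2-fold the count was 0, with 0.0636% of kept genes past it. With arrays centred on their medians 8 members were higher, among them Chl1, Ncam1 and Cntn6, whose sign changed, where 56.4% of kept genes were higher. After quantile normalization 6 members were higher, where 45.1% of kept genes were.

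For 4 of the 10 members the hippocampus PBS array stood apart. It lay outside the other 3 arrays by 0.57 for Cntn4, 0.43 for Ncam2, 0.33 for Cntn1 and 0.31 for Cntn2, and in each case the other 3 arrays lay closer together than this, within 0.12, 0.23, 0.15 and 0.25. Among kept genes 3.63% had it outside the others by 1.2-fold or more, a limit chosen after the values were seen. The members too were chosen with earlier results of these data known, so the 2 shares are a description and no test. Set against the forebrain PBS array instead, the hippocampus ethanol array differed by 0.12 for Cntn4, -0.06 for Ncam2, 0.15 for Cntn1 and -0.25 for Cntn2, and no such gap reached 1.5-fold. That contrast changes tissue as well as treatment. Under it Cntn6, at -0.04 within hippocampus, moved to -0.41. A deviation of the single hippocampus PBS array and a response to ethanol cannot be told apart.

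In forebrain the members differed less. After ethanol 6 were higher and 4 lower, where 46.1% of kept genes were higher. Their median was 0.04, against -0.01 over all kept genes. The median absolute difference was 0.08, against 0.06 over all kept genes. Past 1.5-fold there were 0 members, with 0.0726% of kept genes past it. The ethanol difference had the same sign in both tissues for 9 of the 10 members, all but Chl1, and for 61.4% of kept genes. That count was 9 with centred arrays and 7 after quantile normalization, where 60.9% of kept genes shared a sign under either setting, and several of the values behind it are near 0, such as 0.00 for Nrcam and -0.01 for Ncam1 in forebrain.

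**Figure D2:**
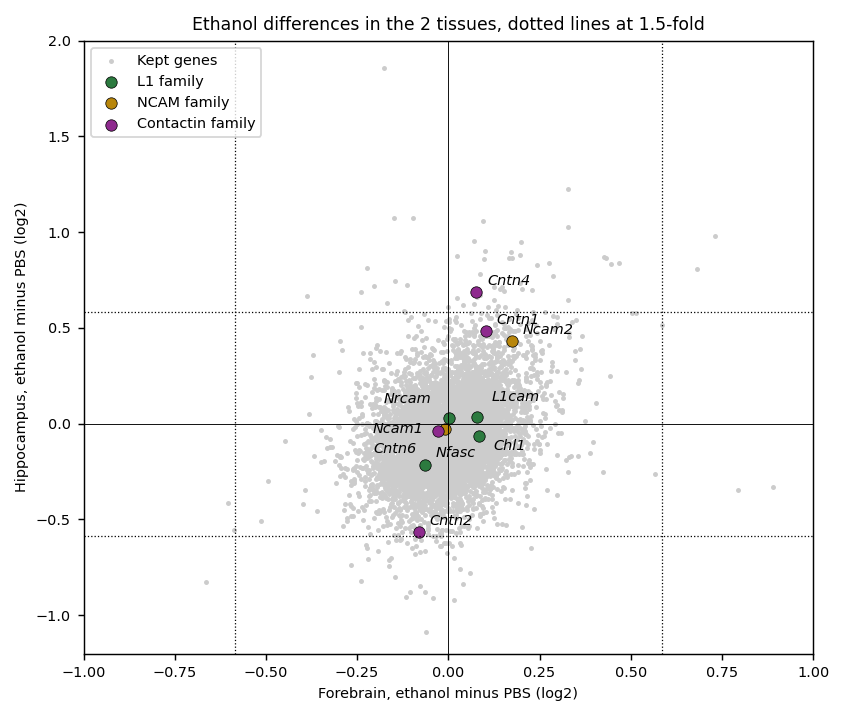
Ethanol minus PBS on the log2 scale in hippocampus (vertical axis) against forebrain (horizontal axis) for the kept genes (grey) and the 10 members, coloured by family. Cntn4 at 0.69 lies past the 1.5-fold line in hippocampus and Cntn2 at -0.57 just inside it, while the L1 family stays between -0.21 and 0.03.

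A limma fit on all kept genes and all 4 arrays, with terms for treatment and tissue, gave the only test of ethanol. It leaves 1 residual degree of freedom, which is the gap between the ethanol effects of the tissues, and p-values measure only the spread between these arrays. Variances were moderated toward a trend over all kept genes, with 6.53 prior degrees of freedom. No member passed: the lowest Benjamini-Hochberg adjusted p among them was 0.510 by limma, and 0 of all kept genes (0.0%) passed. At an unadjusted p of 0.05, limma gave 4 members, with Ncam2, Cntn1 and Cntn4 higher and Cntn2 lower, where 9.76% of kept genes passed. For these same 4 members the hippocampus PBS array stood apart. Their forebrain differences were 0.17 for Ncam2, 0.10 for Cntn1, 0.08 for Cntn4 and -0.08 for Cntn2, each smaller than in hippocampus.

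The estimates for these 4 were of similar size. Ncam2 had a mean ethanol difference of 0.30 (SE 0.09, limma unadjusted p = 0.0087) and Cntn1 one of 0.29 (SE 0.09, limma unadjusted p = 0.0136). Cntn2 stood at -0.32 (SE 0.10, limma unadjusted p = 0.0154) and Cntn4 at 0.38 (SE 0.14, limma unadjusted p = 0.0262). All 4 had an adjusted p of 0.510, and over the alternative settings their adjusted p ranged from 0.203 to 0.618. For L1cam the estimate was 0.06 (SE 0.06, limma adjusted p = 0.712), for Chl1 0.01 (SE 0.06), for Nrcam 0.02 (SE 0.06), for Nfasc -0.14 (SE 0.08), for Ncam1 -0.02 (SE 0.04) and for Cntn6 -0.03 (SE 0.08). The difference between the ethanol effects of the tissues has no test with these 4 arrays. It was 0.61 for Cntn4, -0.49 for Cntn2 and 0.38 for Cntn1, and lay between -0.15 and 0.03 for L1cam, Chl1, Nrcam and Nfasc.

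Between tissues, Cntn6 and Ncam2 read lower in hippocampus than in forebrain after both treatments. Cntn6 differed by -0.38 after ethanol and -0.37 after PBS, and Ncam2 by -0.23 and -0.49. In limma's fit the tissue difference was -0.37 for Cntn6 (SE 0.08, Benjamini-Hochberg adjusted p = 0.0893) and -0.36 for Ncam2 (SE 0.09, adjusted p = 0.116), and 0 of 10 members passed, with 1.13% of kept genes passing. At an unadjusted p of 0.05 limma gave these 2 members, where 15.1% of kept genes passed. After quantile normalization both passed, Cntn6 with a limma adjusted p of 0.0358 and Ncam2 with 0.0487.

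The tissue difference of Cntn4, Cntn1, Cntn2 and Nfasc changed sign between treatments. For Cntn4, Cntn1 and Cntn2, as for Ncam2 above, the hippocampus PBS array stood apart from the other arrays. After ethanol the difference was 0.04 for Cntn4, 0.05 for Cntn1 and -0.17 for Cntn2, whereas after PBS it was -0.57 for Cntn4, -0.33 for Cntn1 and 0.31 for Cntn2. At 1.5-fold 0 members differed after ethanol (0.69% of kept genes) and 0 after PBS (1.28%). L1cam differed by -0.10 after ethanol and -0.06 after PBS, Chl1 by -0.16 and -0.01, Nrcam by -0.04 and -0.07, Ncam1 by -0.09 and -0.07, and Nfasc by -0.13 and 0.02. None of these 5 passed limma's tissue test, with adjusted p-values from 0.461 to 0.813. Below 0 in both comparisons were 6 members, L1cam, Chl1, Nrcam, Ncam1, Ncam2 and Cntn6, and 38.4% of kept genes. The sign for Nrcam and Ncam1 after ethanol turned with centred arrays.

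Cell type markers differed between the tissues as well. Meningeal markers were lower in hippocampus for 5 of 5 genes after both treatments (median -0.58 after ethanol and -0.999 after PBS), and 3 of them passed limma's adjusted test. Their mean level in hippocampus was 8.22 after ethanol and 7.85 after PBS, against 8.76 and 8.91 in forebrain. Thalamic markers were lower for 5 of 5 after both treatments (medians -0.20 after ethanol and -0.52 after PBS), and endothelial markers for 4 of 4 (medians -0.25 and -0.28). Striatal markers were higher in hippocampus for 10 of 10 after ethanol (median 0.59) and for 6 of 10 after PBS (median 0.13). Choroid plexus markers were higher for 2 of 4 after ethanol (median 0.01) and 4 of 4 after PBS (median 0.47). Progenitor markers were higher for 6 of 8 after both (medians 0.07 and 0.14). Limma's adjusted test was also passed by 2 striatal, 1 progenitor and 1 choroid plexus marker, all higher. Lower were 1 cortical excitatory and 1 oligodendrocyte lineage marker. Over all kept genes the median was -0.06 after ethanol and 0.01 after PBS, and 69.6% and 47.5% of them were lower in hippocampus. The part of these markers in the members' tissue differences was not tested.

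**Figure D3:**
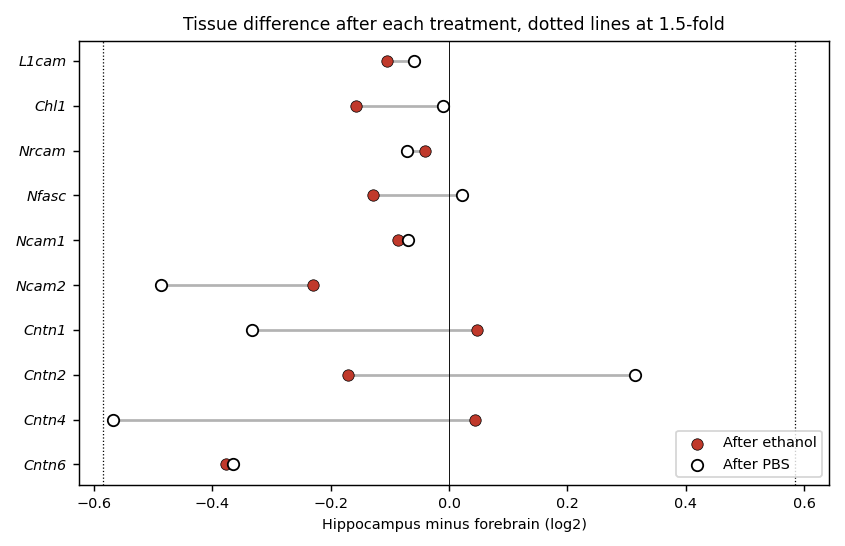
Hippocampus minus forebrain on the log2 scale (horizontal axis) for each member after ethanol (filled) and after PBS (open), joined by a line. Both points of Cntn6 lie near -0.37, while Cntn4, Cntn1 and Cntn2 are far apart, near 0 after ethanol for Cntn4 and Cntn1.

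Relatives and partners of these molecules were described from lists. Among 23 kept relatives, drawn from the remaining contactins, the Caspr family and other immunoglobulin-type adhesion molecules, 16 were higher and 7 lower in hippocampus after ethanol (median 0.18, against -0.08 over all kept genes). Of all kept genes 30.7% were higher there, a share that was 56.4% with centred arrays and 45.1% after quantile normalization. Counts for this list and the later ones are on the deposited values. The relatives were also set against limma and the fold limit. None of the 23 passed 1.5-fold, and limma called none for ethanol after adjustment, with 5 higher and 0 lower at an unadjusted p of 0.05, where 9.76% of kept genes passed in either direction. Cntnap1, the gene of Caspr itself, lay below the filter, between 5.73 and 6.28 on the 4 arrays. Cntnap5b and Cntnap5a, genes of the Caspr family, differed by 0.54 and 0.52, and Negr1, a lipid-anchored adhesion molecule of the IgLON family, by 0.48. Caspr2, encoded by Cntnap2, is the partner of Cntn2 at myelinated axons. It read 9.58 in hippocampus after ethanol, against 9.14 after PBS, a difference of 0.45, opposite in sign to Cntn2, and this gene was picked after its value was seen. For Cntnap5b, Cntnap5a, Negr1 and Cntnap2 the hippocampus PBS array was the lowest of all arrays, as for Cntn4, Ncam2 and Cntn1. Set against forebrain, 14 of the 23 were lower in hippocampus after ethanol, where 69.6% of kept genes were lower, and 20 of 23 after PBS, where 47.5% were.

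Extracellular partners lay on both sides of 0. Of 19 kept genes 8 were higher and 11 lower in hippocampus after ethanol (median -0.02), where 30.7% of all kept genes were higher. Gfra1, the receptor for GDNF that also uses NCAM, differed by 0.54. Nrp1, the semaphorin receptor that works with L1, differed by -0.42, and Ptprg, a receptor phosphatase that binds contactins, by 0.30. App, which Cntn4 binds, differed by 0.18 and Ptprz1, which Cntn1 binds, by -0.19. Both were named after their values were seen. On the hippocampus PBS array Gfra1 read 8.20, against 8.74 to 8.86 on the other arrays, and Nrp1 read 10.56, against 10.13 to 10.14. Ptprg and App were also lowest on that array and Ptprz1 was highest. For these genes too, a deviation of that single array and a response to ethanol cannot be told apart. Itgb3 and Gdnf lay below the filter.

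Cytoplasmic anchors ran from -0.48 to 0.21, with 7 of 16 kept genes higher and 9 lower (median -0.02). For this list and the next ones, the share of all kept genes that were higher was 30.7%. Moesin (Msn), which links membrane proteins to actin, differed by -0.48, its relative ezrin (Ezr) by -0.23 and the ankyrin gene Ank1 by 0.21. The ankyrins of neurons, Ank2 and Ank3, were at 0.07 and -0.00, named after their values were seen. In the signalling list 6 of 14 were higher and 8 lower (median -0.02), with the fibroblast growth factor receptors Fgfr2 at -0.40 and Fgfr1 at -0.31 and the kinase gene Prkcb at 0.31. In the processing and trafficking list 4 of 14 were higher and 10 lower (median -0.06). Its named genes were dynamin 1 (Dnm1), which pinches off endocytic vesicles, at 0.35, B3gat1, the enzyme of the HNK-1 sugar epitope, at -0.24 and the sheddase gene Adam17 at -0.15. The polysialyltransferases St8sia2 and St8sia4, which modify NCAM, were at -0.09 and -0.02, picked after their values were seen. Here too the hippocampus PBS array was often at an extreme. It was the highest of all arrays for Msn, Ezr, Fgfr2, Fgfr1 and Adam17 and the lowest for Ank1, Prkcb and Dnm1, but neither for B3gat1. Past 1.5-fold in either tissue there were 0 genes in these 5 lists, and limma called none of them for ethanol after adjustment. Before adjustment, limma's p lay below 0.05 for 4 higher and 1 lower extracellular partner, for 0 higher and 2 lower anchors, for 2 higher and 0 lower signalling genes and for no processing gene, beside the 9.76% of all kept genes.

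**Figure D4:**
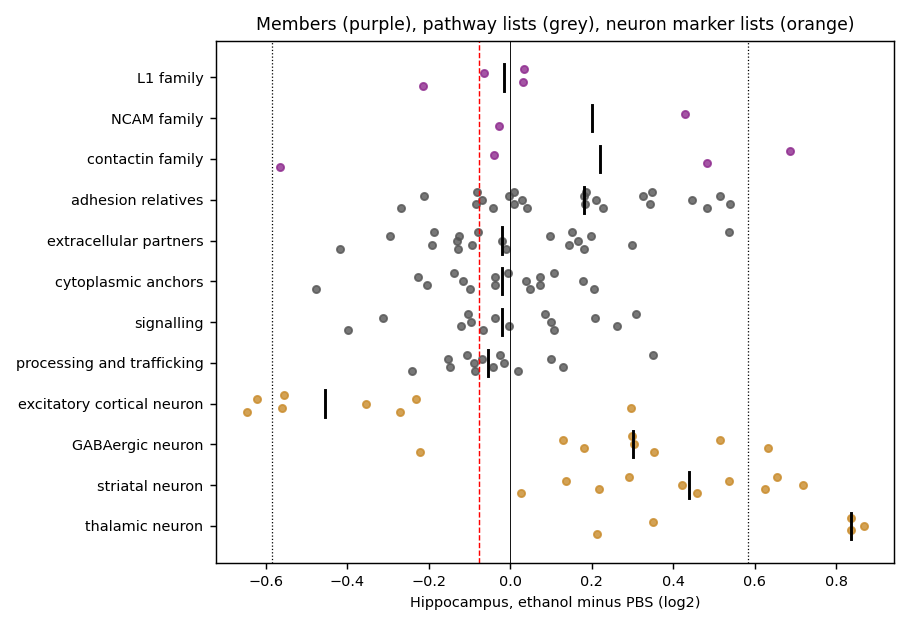
Ethanol minus PBS in hippocampus on the log2 scale (horizontal axis), 1 point a kept gene, for the member families, the lists of relatives and partners and 4 neuron marker lists, with black bars at list medians, a dashed line at the median of all kept genes (-0.08) and dotted lines at 1.5-fold. The contactin members spread from -0.57 to 0.69, markers of cortical excitatory neurons lie mostly below 0, and those of striatal and thalamic neurons lie above it.

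Markers of neuron types also differed in hippocampus between ethanol and PBS, where 30.7% of all kept genes were higher. In a bulk sample, more cells of a type and more RNA per cell cannot be told apart. Markers of cortical excitatory neurons were lower after ethanol for 7 of 8 genes (median -0.45), and their mean level was 9.30 after ethanol and 9.67 after PBS, against 9.45 and 9.56 in forebrain. Striatal markers were higher for 10 of 10 (median 0.44), with mean levels of 9.09 after ethanol and 8.68 after PBS, against 8.49 and 8.55 in forebrain. GABAergic markers were higher for 7 of 8 (median 0.30), with 9.61 after ethanol and 9.33 after PBS, against 9.48 and 9.56 in forebrain. Thalamic markers were higher for 5 of 5 (median 0.84), with 8.28 after ethanol and 7.66 after PBS. Their mean levels in forebrain were 8.46 after ethanol and 8.24 after PBS. The hippocampus PBS array was thus the lowest of the 4 for thalamic and GABAergic markers and the highest for cortical excitatory markers, while the hippocampus ethanol array was the highest for striatal and GABAergic markers and the lowest for cortical excitatory markers. The hippocampus PBS array was also at an extreme for most lists of other cell types, as given below. General neuron markers were higher for 4 of 10 and lower for 6 (median -0.03), with means of 10.62 after ethanol and 10.60 after PBS. The part of cell type make-up in the members' differences was not tested.

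Markers of other cell types differed too, beside the 30.7% of all kept genes that were higher in hippocampus after ethanol. In hippocampus after ethanol meningeal markers were higher for 4 of 5 (median 0.50) and astrocyte markers for 5 of 5 (median 0.36), while choroid plexus markers were lower for 4 of 4 (median -0.37). Oligodendrocyte lineage markers had a median of 0.13, Cajal-Retzius markers of 0.41, progenitor markers of -0.17, endothelial markers of -0.02 and microglial markers of 0.01. The Cajal-Retzius markers split: Calb2, also in the thalamic list, was at 0.87 and Ebf3 at 0.81, but Reln at 0.00 and Trp73 at -0.21. Of the erythroid markers only Alas2 could be used, at -0.04. Below the filter were S100b of the astrocyte list, Lum of the meningeal list and Aif1 of the microglial list. Mean levels on the hippocampus PBS array were the lowest of all arrays for astrocyte (8.47), meningeal (7.85), Cajal-Retzius (8.29) and oligodendrocyte lineage (7.75) markers. They were the highest for choroid plexus (9.09) and progenitor (9.78) markers. Endothelial (8.19) and microglial (7.58) means were lowest there by little, beside 8.20 and 7.59 on the hippocampus ethanol array.

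Genes whose pattern over the 4 arrays was most like that of Cntn4, the member with the widest range, were found by Euclidean distance after centring each gene on its own mean. The nearest were Trank1 (distance 0.03), Prune2 (0.09), Plcxd3 (0.10), the GABA receptor subunit gene Gabrg3 (0.10) and the sodium leak channel gene Nalcn (0.10). Trank1 read 9.81 in hippocampus after ethanol, against 9.14 after PBS, and 9.74 in forebrain after ethanol, against 9.67 after PBS. The likeness rests on 4 arrays and is a description.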

How the data were processed

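Total RNA was extracted with Trizol and 6 ug of it was made into biotinylated cRNA, per the labels' protocols. MAS5 is named in the submitters' processing notes, without a version, and no normalization method is given. The authors' deposited log2 values were used as they stand. Their base is not stated and was read from the range, 1.58 to 13.96. Signal over background is unknown, and precision is limited by having 4 arrays. Samples were grouped by title.

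Of 35557 probe sets, 21789 had 1 symbol in the platform annotation, 1621 several and 12147 none. All 10 members matched RefSeq by gene identifier. A gene was represented by its probe set of highest mean and kept at a mean of 7.11 or more, the median of all probe sets. Differences between single arrays were counted at 1.5-fold, and limma 3.58.1 under R 4.3.3 used treatment and tissue terms, a variance trend and Benjamini-Hochberg adjustment at 0.05. A run on simulated data had less spread than these arrays and required only that the set effect be returned, so it is no check of the p-values. Python 3.11.15 did the rest. The members and lists were chosen with earlier results of these data known. Beyond the members, the text names by rule the 3 genes per partner list with the largest hippocampal ethanol difference and the 5 nearest patterns to the most variable member. Outside this rule, Cntn3, Cntn5, Cntnap2, App, Ptprz1, Ank2, Ank3, St8sia2, St8sia4 and some single markers were named after their values were seen. Alternatives were median centring, quantile normalization, other filters, 2-fold, probe set means, a fit of all probe sets and no trend.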

Additional observations from a re-analysis of the deposited data

Results flagged for a closer look

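The ethanol difference of Chl1 ran in opposite directions in the tissues, at -0.0638 in hippocampus and 0.083 in forebrain, each from 1 array a treatment. The difference between the tissues was not tested, and 72.7% of kept genes had a larger absolute difference in hippocampus and 32.4% in forebrain. With arrays centred on their medians the hippocampal value was 0.04, the same sign as in forebrain.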

How the results depend on the processing

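Of 60 summary values recomputed under alternative settings, 56 stayed within a count of 1.5 times the original or within 1 SD of the differences over all kept genes. Part of this was fixed in advance. Each member has 1 probe set and passed the filter, so dropping the filter or averaging probe sets could not change array differences. A count of 0 past 1.5-fold stays 0 at 2-fold. The members' median hippocampal difference, 0.00, became 0.10 with centred arrays, 0.04 after quantile normalization and -0.07 with the forebrain PBS array in place of the hippocampus PBS array. The count of members past 1.5-fold in hippocampus was 1 and became 0 with the 75th percentile filter, which removes Cntn4 and Cntn6, 0 at 2-fold, and 0 with the hippocampus PBS array replaced by the forebrain PBS array, a setting added after the data were seen. That replacement changes tissue as well as treatment. The count of members passing limma between tissues was 0 and became 2 after quantile normalization, and the cause was not tested. Centring moved the median of all kept genes by at most 0.10, and with it limma's ethanol estimates turned to 0.026 for Cntn6 and 0.041 for Ncam1. The hippocampal differences over the filters, scalings and probe set rules were 0.69 to 0.79 for Cntn4, 0.48 to 0.58 for Cntn1, 0.43 to 0.53 for Ncam2 and -0.57 to -0.47 for Cntn2. Only the scalings could move these values. No paired analysis was possible because the labels give no replicate numbers and each group has 1 array. Leaving out any array leaves limma no residual degree of freedom.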

Other observations

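Neighbouring members on a chromosome did not share a pattern in each case. In RefSeq, Chl1, Cntn6 and Cntn4 follow one another on mouse chromosome 6 with 0 protein-coding genes between neighbours. Their ethanol differences in hippocampus were -0.06 for Chl1, -0.04 for Cntn6 and 0.69 for Cntn4. The signs of Chl1 and Cntn6 turned with centred arrays, to 0.04 and 0.06. Cntn2 and Nfasc are neighbours on chromosome 1, again with 0 protein-coding genes between them, and both read lower in hippocampus after ethanol, by -0.57 and -0.21. Most kept genes were lower there, with 30.7% higher. These pairs were picked after their values were seen.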
